A study of Mus musculus with 2 samples.

Results

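The 10 genes of capillary lipid handling and of gas and water transport described here were followed through every cell cluster of a single-cell RNA-seq study of the mouse submandibular salivary gland after duct ligation. They were chosen by name, as 10 of the 20140 genes in the deposited tables: *Fabp4*, *Fabp5*, *Cd36*, *Gpihbp1*, *Lpl*, *Aqp1*, *Car4*, *Meox2*, *Tcf15* and *Thrsp*. The ligated library came from female C57BL6/J mice aged 14 weeks whose submandibular and sublingual ducts had been closed by a metal clip for 14 days. The mock library came from mice of the same strain, sex and age that had the operation without the clip and healed for the same 14 days. Each library pooled 2 glands, harvested with the sublingual glands, and in both the suspension had been depleted of EpCAM-positive epithelial cells, Ter119-positive red cells and dead cells, so that shares of cells describe what the depletion left. With 1 library per condition there is no spread between replicates, no difference below could be tested, and surgery, animal and library preparation cannot be told apart.

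Continuous capillaries pass fuel from blood to tissue. Triglyceride-rich particles are cut by lipoprotein lipase, an enzyme made by parenchymal and stromal cells and carried across the endothelium by GPIHBP1. The released fatty acids are taken up with the help of CD36 and carried inside the cell by fatty acid binding proteins, and MEOX2 and TCF15 are a transcription factor pair known to support this uptake in heart and muscle capillaries. Aquaporin 1 is a channel for water that also lets carbon dioxide through, and carbonic anhydrase 4 is an enzyme on the outer membrane that interconverts carbon dioxide and bicarbonate on the luminal face of capillaries.

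The deposited value of a gene is its mean over the cells of a cluster, in unique molecular identifiers (UMIs, each 1 captured RNA molecule) per 10000 UMIs of the cell. It is called the level below. A difference is log2 of ligated over mock after 0.1 was added to both levels, and for low genes this makes the change look smaller than it is. A gene is said to have risen or fallen where its higher level was at least 0.5 and the difference at least 1 in size, and clusters were compared where both libraries held at least 50 cells. The tables of all cells held 11406 ligated and 4199 mock cells in 12 clusters, of which 9 were compared. A second pair of tables held 1935 ligated and 401 mock cells, reclustered by the authors into 5 clusters, of which 3 were compared. These belong to the same 2 libraries and give no independent support.

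Clusters 0 and 4 of all cells and cluster 3 of the subset were endothelial-like by their markers. Cluster 0 (2948 ligated and 2363 mock cells) made up 25.8% of the ligated library (exact 95% binomial limits of 25.0% and 26.7%) and 56.3% of the mock cells (limits of 54.8% and 57.8%), where the limits cover counting error alone. It had the highest level of 9 of 11 endothelial markers and was led by capillary genes. Cluster 4 (531 and 226 cells) had the highest level of 8 of 10 arterial markers, 5 of 8 lymphatic and 4 of 8 venous markers, so it mixes larger vessels and lymphatics. Subset cluster 3 (260 and 82 cells) was endothelial-like with fibroblast genes. The name of the gene group held for 8 of its 10 members, whose highest level in both libraries among the 9 compared clusters was in cluster 0 or 4. It did not hold for *Lpl*, highest in fibroblast-like cluster 3, or for *Meox2*, highest in mural-like cluster 6 (pericytes and smooth muscle).

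The genes lie on 9 chromosomes of GRCm38 (mm10), and *Fabp4* (chr3:10204088-10208576, minus strand) and *Fabp5* (chr3:10012548-10016607, plus strand) are neighbours, 187480 bases apart with 6 annotated genes between them. *Cd36* is at chr5:17781690-17888801 (minus), *Gpihbp1* at chr15:75596628-75599481 (plus), *Lpl* at chr8:68880491-68907448 (plus) and *Aqp1* at chr6:55336432-55348555 (plus). *Car4* is at chr11:84957786-84966044 (plus), *Meox2* at chr12:37108540-37179534 (plus), *Tcf15* at chr2:152143561-152149097 (plus) and *Thrsp* at chr7:97412938-97417730 (minus). No member shares exon bases with another gene. *Fabp5* is the member with near-identical copies: 43 of 823 stretches of 50 bases in the last 600 bases of its transcripts, 5.22%, also occur in Gm14328 or Gm6166, which have no row in the tables, so part of its reads may have been lost or shared.

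RefSeq promoter sequences for GRCm38.p6 were matched for 5 of the 10 genes (*Cd36*, *Aqp1*, *Car4*, *Meox2*, *Thrsp*). The 250 bases before the start are printed for 3 of them because they moved apart in capillary cells: *Cd36* fell, *Aqp1* rose, and *Car4* changed by less than the size used. For *Cd36* this start lies inside the annotated gene, downstream of its outermost start. Which start the cells used cannot be read from cluster means. The 6 motifs searched on both strands were AGGTCA (a nuclear receptor half-site), CAGGAAG (an ETS core), CAGCTG (an E-box), GGGCGG (a GC box), TATAAA (known as the TATA box) and, as a core bound by homeobox factors, TAATTA. Capitals mark their matches, written 5′ to 3′ in the gene's direction.
Cd36, chr5:17835897-17836146, minus strand: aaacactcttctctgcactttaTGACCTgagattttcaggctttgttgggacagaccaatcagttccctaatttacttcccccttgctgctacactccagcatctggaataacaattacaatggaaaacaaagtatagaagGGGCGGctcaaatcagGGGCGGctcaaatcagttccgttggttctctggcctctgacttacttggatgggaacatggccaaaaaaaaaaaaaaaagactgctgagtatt
Aqp1, chr6:55336049-55336298, plus strand: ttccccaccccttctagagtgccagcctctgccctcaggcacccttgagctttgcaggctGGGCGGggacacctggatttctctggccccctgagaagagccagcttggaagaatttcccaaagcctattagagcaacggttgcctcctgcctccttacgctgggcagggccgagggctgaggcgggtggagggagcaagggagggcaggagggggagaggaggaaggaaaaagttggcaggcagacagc
Car4, chr11:84957504-84957753, plus strand: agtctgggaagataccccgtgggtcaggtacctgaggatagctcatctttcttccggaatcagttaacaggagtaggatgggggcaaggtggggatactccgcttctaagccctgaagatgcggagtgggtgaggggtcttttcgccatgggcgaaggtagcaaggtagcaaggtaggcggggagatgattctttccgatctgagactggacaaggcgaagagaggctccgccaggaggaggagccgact
The *Cd36* window held AGGTCA on the opposite strand 228 to 223 bases before the start, and GGGCGG at 109 to 104 and at 93 to 88 bases. *Aqp1* held GGGCGG at 190 to 185 bases, and *Car4* held none of the 6. Of 32851 RefSeq promoters of this length, 14.0% held AGGTCA, 10.8% CAGGAAG, 13.0% CAGCTG, 12.4% TATAAA, 4.84% TAATTA and 32.7% GGGCGG. The GC content was 43.2% for *Cd36*, 62% for *Aqp1* and 56.4% for *Car4*, against a median of 52.4%. A match is a string of letters and no evidence of binding.

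In capillary cluster 0, 4 lipid genes fell with ligation and the water channel rose. Of the 10 genes, 8 had a level of at least 0.5 in 1 of the libraries, 4 fell and 1 rose. Over all 3849 genes with such a level 2.68% fell and 3.92% rose. The median difference of the 8 genes was -1.002, beside 0.01 over all genes. *Lpl* and *Meox2* were under 0.5 in both libraries.

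**Figure D1:**
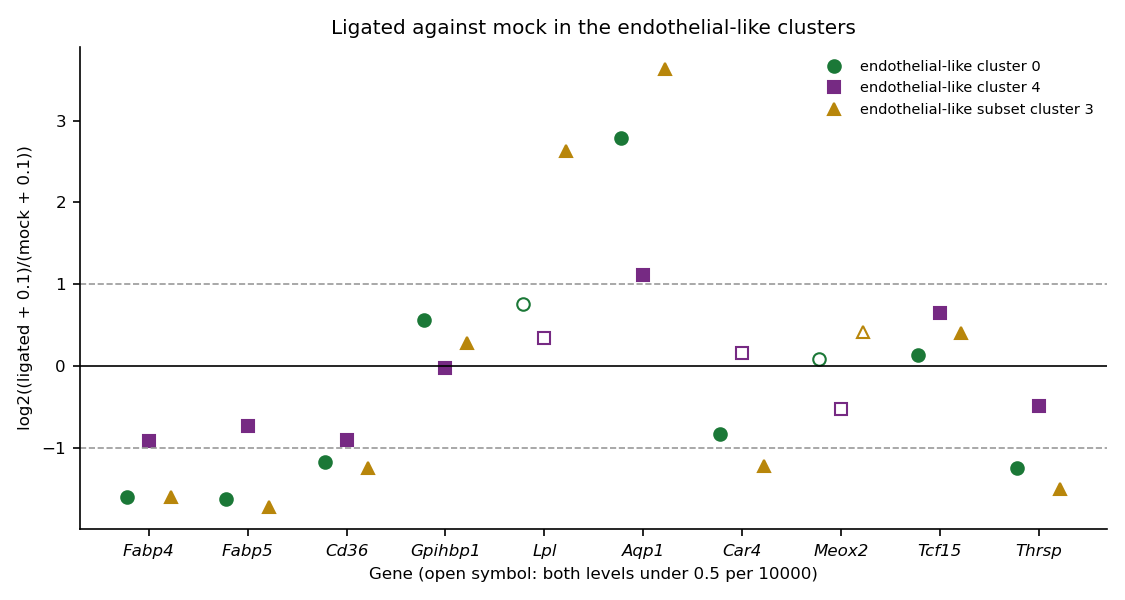
Difference of each of the 10 genes between the ligated and the mock library, as log2 of ligated over mock with 0.1 added to both, in endothelial-like clusters 0 and 4 of all cells and endothelial-like cluster 3 of the subset. Each point is 1 pair of cluster means, with no replicate and no error bar. *Fabp4*, *Fabp5*, *Cd36* and *Thrsp* lie below 0 in all 3 clusters, and *Aqp1* lies above 1 in all 3.

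*Fabp4*, the fatty acid carrier of capillary endothelium and adipocytes, had a cluster 0 level of 144 in mock and 47.3 in ligated cells, 3.04-fold lower with ligation (difference -1.60). *Fabp5*, a carrier of the same family with a wider range of cell types, went from 8.90 to 2.82 (-1.62). The cluster 0 differences of these neighbouring genes were nearly equal, and in subset cluster 3 they were -1.60 and -1.73. They lay further apart in macrophage-like cluster 5 (-1.33 and -2.21) and ductal-like cluster 7 (-0.25 and -1.29). In cluster 0 *Cd36*, the fatty acid translocase of the cell surface, went from 5.44 to 2.37 (-1.17). *Thrsp*, a nuclear protein that responds to thyroid hormone and carbohydrate and is known from lipogenic tissue, went from 11.5 to 4.79 (-1.24). The mock library was the higher for each of these 4 genes.

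*Gpihbp1*, the endothelial carrier of lipoprotein lipase, did not move with them. It stood at 10.3 in mock and 15.3 in ligated cells of cluster 0, a difference of 0.56, short of the size used. *Lpl*, the enzyme itself, was at 0.0696 and 0.186 there. Those levels were 5.40% and 6.60% of the mean over all cells of each library, where markers of other cell types stood in the same cluster at a median of 4.05% and 9.64% of theirs, so *Lpl* in cluster 0 is read as background, the level that RNA from other cells gives.

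*Aqp1* rose in cluster 0 from a mock level of 0.874 to a ligated level of 6.61, 7.56-fold (2.78), and the levels rest on about 1727 and 16572 UMIs. *Car4*, the capillary carbonic anhydrase, had levels of 5.09 and 2.81, a difference of -0.83 that is short of the size used. The transcription factor *Tcf15* was at 1.83 in mock and 2.01 in ligated cells (0.13), a near-equal pair, and its partner *Meox2* was at 0.0047 and 0.0115. A link between the levels of these 2 factors and those of *Cd36* and *Fabp4* was not tested, and *Meox2* was under 0.5 in both libraries.

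**Figure D2:**
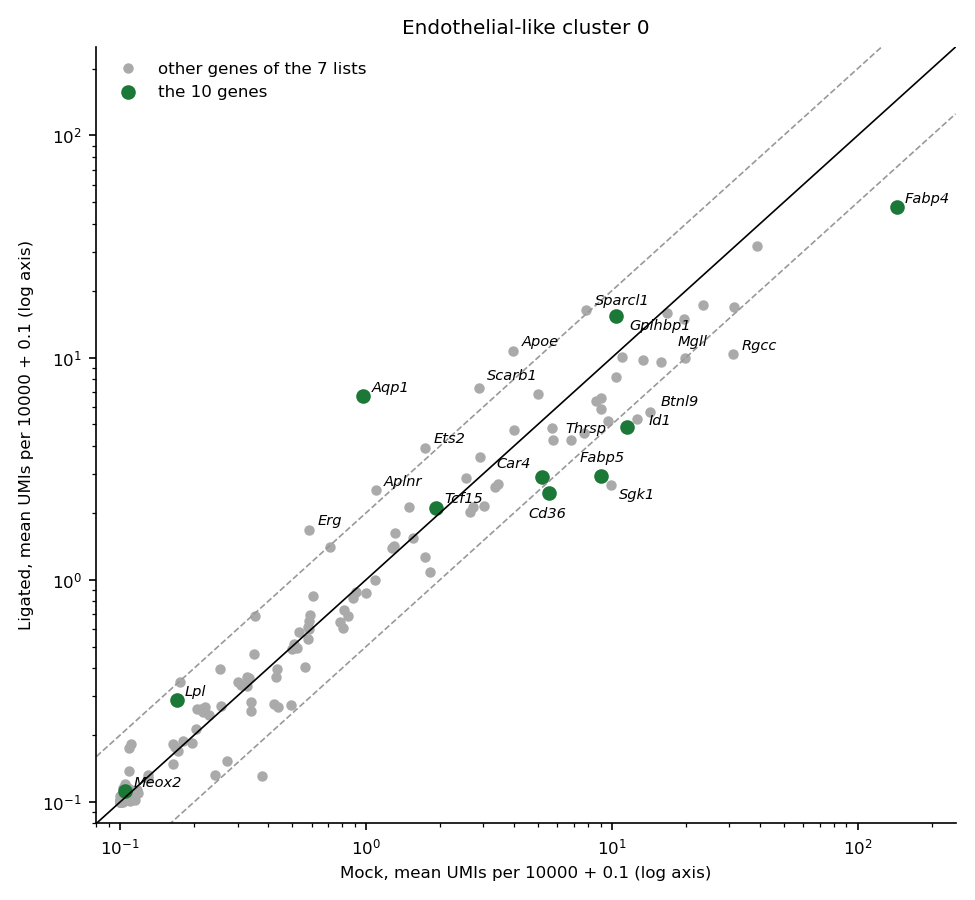
Level of the 10 genes (green) and of the other genes of 7 lists (grey) in endothelial-like cluster 0, with the mock library on the horizontal and the ligated library on the vertical axis, both as mean UMIs per 10000 plus 0.1 on log axes. The solid line marks equal levels and the broken lines a difference of 1 on the log2 scale. *Fabp4*, *Fabp5*, *Cd36* and *Thrsp* lie below the lower broken line and *Aqp1* above the upper one.

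In cluster 4, the mixture with arterial, lymphatic and venous markers, *Aqp1* rose from 3.50 to 7.69 (1.11). None of the 7 genes with a level of at least 0.5 fell there. Over its 3918 genes 3.29% rose and 2.81% fell, and the medians were -0.49 for the 7 genes and -0.0035 for all. *Fabp4* was at 84.2 in mock and 44.7 in ligated cells (-0.91), *Cd36* at 12.7 and 6.75 (-0.90), and *Fabp5* at 2.57 and 1.503 (-0.74). These 3 genes were again lower in the ligated library, each by less than the size used. *Thrsp* was at 4.21 and 2.98 (-0.49), *Gpihbp1* at 6.27 and 6.19 (-0.02) and *Tcf15* at 1.81 and 2.89 (0.65). Venous markers summed to 9.86 in mock and 4.95 in ligated cells of cluster 4 (3 of 7 fell). Arterial markers summed to 38.7 and 38.2 and lymphatic markers to 9.95 and 10.9. A list of 20 other capillary genes summed to 118 and 95.1, beside 222 and 152 in cluster 0. The part of the cell makeup of cluster 4 in its differences was not tested.

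The 2 endothelial clusters came closer together for several genes. In mock cells *Fabp4* was 1.71-fold and *Fabp5* 3.46-fold higher in cluster 0 than in cluster 4, and in ligated cells 1.06-fold and 1.88-fold. *Thrsp* was 2.72-fold higher in cluster 0 in mock and 1.61-fold in ligated cells. *Aqp1* was the reverse case, 4.01-fold higher in cluster 4 in mock cells and 1.16-fold in ligated cells. *Car4* set the clusters far apart, 24.2-fold higher in cluster 0 in mock and 11.3-fold in ligated cells. Its cluster 4 levels, 0.211 in mock and 0.248 in ligated cells, were under 0.5 in both libraries. These 2 *Car4* folds, and the *Car4* value at the end of this paragraph, thus rest on low levels. *Cd36* was higher in cluster 4 in both libraries, 2.33-fold in mock and 2.85-fold in ligated cells. *Gpihbp1* was 1.65-fold and 2.47-fold higher in cluster 0. The difference with ligation itself differed between clusters 0 and 4 by 1.67 for *Aqp1*, -0.69 for *Fabp4*, -0.89 for *Fabp5* and -0.998 for *Car4*, as values that were not tested and that compare genes the clustering also used.

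In subset cluster 3, 5 of the 9 genes with a level of at least 0.5 fell and 2 rose. Over its 4115 genes 4.23% fell and 6.29% rose, and the medians were -1.22 for the 9 genes and -0.04 for all. The 11 endothelial markers summed to 162 in mock and 102 in ligated cells there (2 fell and 1 rose), and their part in these differences was not tested. *Fabp4* went from 112.2 to 36.9 (-1.60), *Fabp5* from 7.77 to 2.28 (-1.73), *Cd36* from 6.12 to 2.52 (-1.25) and *Thrsp* from 10.1 to 3.49 (-1.51). *Car4* passed the size here, from 3.61 to 1.49 (-1.22). *Aqp1* rose from 0.285 to 4.67, 16.4-fold (3.63), with about 22 and 1094 UMIs behind the levels. *Gpihbp1* was at 8.71 and 10.6 (0.28), *Tcf15* at 1.34 and 1.81 (0.40) and *Meox2* at 0.0622 and 0.116.

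*Lpl* rose in subset cluster 3, from 0.868 to 5.87 (2.63). Fibroblast markers rose in the same cells: 8 of the 10 with a level of at least 0.5 did, and the 11 markers summed to 21.3 in the mock and 74.2 in the ligated library. The *Lpl* level was 3.38% in mock and 22.8% in ligated cells of that in fibroblast-like subset cluster 0, and the summed fibroblast markers were 5.86% and 23.99% of theirs. Mural markers summed to 21.3 and 13.5 there (0 of 10 rose and 3 fell), and erythroid markers to 26.6 and 1.37 (3 of 3 fell). The part of these cells in the *Lpl* difference was not tested.

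*Lpl* and *Meox2* had their highest levels outside the endothelium. In fibroblast-like cluster 3 *Lpl* had a mock level of 23.7 and a ligated level of 24.2 (0.03). Fibroblast-like subset cluster 0 had 25.6 and 25.7 (0.0028). The fibroblast levels of both libraries were thus close, and 82.3% of the mock and 86.4% of the ligated *Lpl* level summed over cells came from cluster 3. In macrophage-like cluster 5, the second highest, *Lpl* fell from 4.58 to 2.06 (-1.11). *Meox2* was at 0.707 and 0.766 in mural-like cluster 6 (0.10). Its levels were lower in cluster 3, 0.460 and 0.235 (-0.74), and lower again in endothelial cluster 4, 0.273 and 0.158 (-0.53). Cluster 6 gave 41.5% and 41.9% of its summed level and cluster 3 gave 31.5% and 35.2%.

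**Figure D3:**
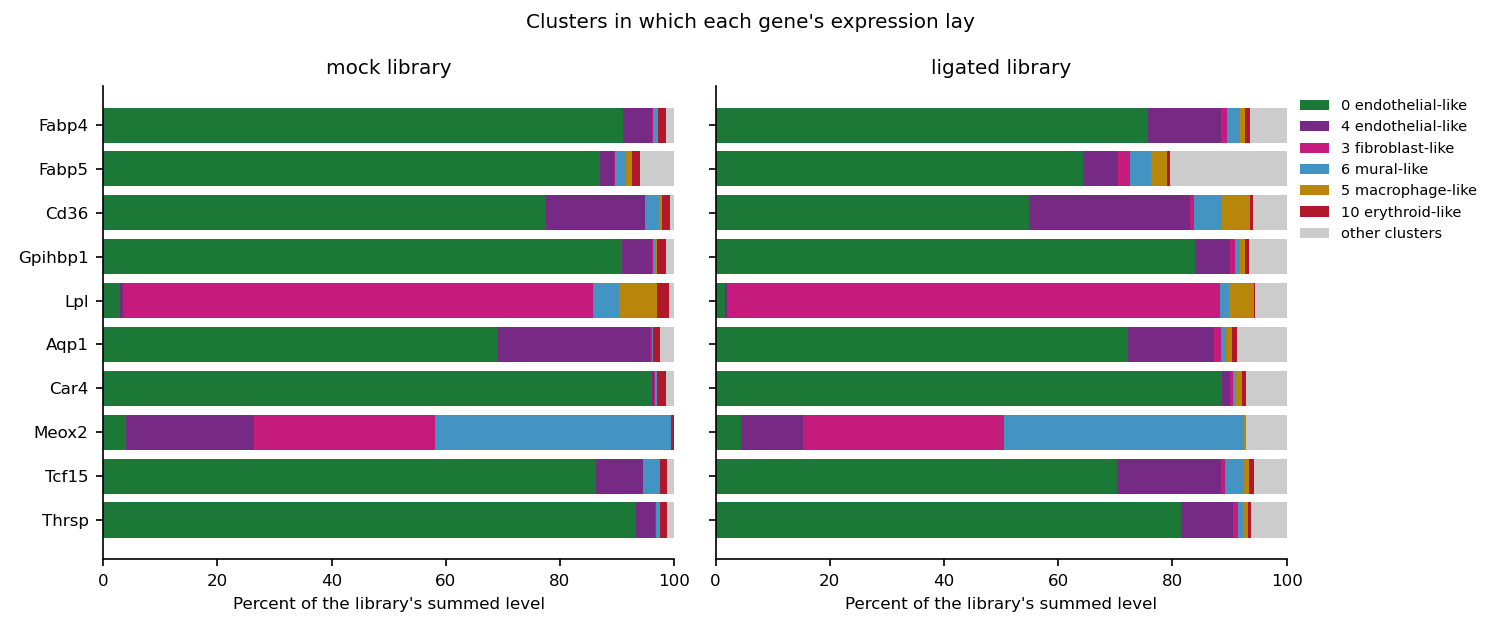
Share of each gene's summed level over all cells that came from each cluster, in percent, for the mock and the ligated library. For 8 genes clusters 0 and 4 gave 89.5% to 96.6% in the mock and 70.4% to 90.5% in the ligated library, whereas *Lpl* came mostly from fibroblast-like cluster 3 and *Meox2* from mural-like cluster 6 and cluster 3.

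Some of the lipid genes also stood above the median of other cell types' markers in mural-like cells. In mural-like cluster 6 *Cd36* was at 2.40 in mock and 1.48 in ligated cells (-0.67), which was 60.8% and 132% of the library mean. *Tcf15* was at 0.915 and 0.658 (-0.42), 76.9% and 88.8% of it, and *Fabp4* at 17.3 and 10.3 (-0.75), 19.5% and 63.7% of it. Markers of other cell types stood in cluster 6 at a median of 8.06% and 22.4% of the library mean, so all 3 genes were above that level. That median covers many cell types. The endothelial markers alone summed to 21.5 in mock and 15.5 in ligated cells of cluster 6, beside 177 and 144 in cluster 0. *Fabp4* in cluster 0 was at 144 and 47.3. The part of endothelial RNA in the cluster 6 levels was not tested. The mural-like cluster of the subset, cluster 2, had similar *Cd36* and *Tcf15* levels and far lower levels of *Gpihbp1* and *Thrsp*. *Cd36* there was at 99.2% of its cluster 6 level in mock and 107% in ligated cells, and *Tcf15* at 83.5% and 81.8%. *Gpihbp1* was at 9.63% and 16.2% and *Thrsp* at 6.27% and 20.7% of their cluster 6 levels. *Fabp4* was at 6.58 in mock and 9.01 in ligated cells of subset cluster 2 (0.45), the opposite direction to cluster 6. Endothelial markers summed to 8.80 and 7.14 in subset cluster 2, and the part of endothelial RNA in this *Fabp4* difference was not tested.

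By the size rule, *Fabp5* (3.04 to 1.16) and *Thrsp* (0.959 to 0.371) fell and *Aqp1* (0.0354 to 0.529) rose in cluster 6, where 4.5% of genes fell and 4.92% rose. In subset cluster 2 *Fabp5* fell from 2.46 to 1.06 (-1.14), and 4.26% of genes fell and 4.26% rose. *Fabp5* thus fell in the mural-like cells of both tables. The *Aqp1* level in ligated cells of cluster 6 was 22.4% of the library mean, the same as the 22.4% of other cell types' markers there, and is read as background.

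Outside vessels, *Fabp5* had clear levels in several cell types. Among the compared clusters it was highest after capillary cluster 0 in ductal-like cluster 7, where it fell from 4.31 to 1.70 (-1.29), and in macrophage-like cluster 5 it fell from 2.87 to 0.544 (-2.21). In macrophages it stood at 49.9% and 47.9% of the library mean, against 11.2% and 20.1% for markers of other cell types. Schwann-like cluster 9 had a *Fabp5* level of 6.404 in mock and 3.95 in ligated cells, with 17 mock cells and no comparison. Unnamed cluster 11, with 22 mock cells, had a *Fabp4* level of 75.0 in mock and 2.58 in ligated cells. *Gpihbp1* was there at 4.26 and 0.602 and *Tcf15* at 1.13 and 0.0232, so this *Fabp4* is not shown to lie outside vessels. Unnamed cluster 8, with 25 mock cells, had *Fabp4* levels of 4.82 and 12.6, which were 5.43% and 77.8% of the library mean. Markers of other cell types stood there at 1.24% and 100.3%, so the ligated level is read as background. In macrophages *Cd36* was at 1.41 and 0.904 (-0.59), 35.7% and 81.1% of the library mean, above the 11.2% and 20.1% of the markers there.

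In macrophage-like cluster 5, 4 genes fell (*Fabp4* from 5.63 to 2.18, *Fabp5*, *Lpl* and *Thrsp*, from 0.522 to 0.192) and none of 6 rose, against 4.34% and 4.15% of all genes. *Fabp4* and *Thrsp* were there at 13.5% and 12.6% of the ligated library mean, below the 20.1% of other cell types' markers, and are read as background. *Aqp1* was listed at 0 in the 77 mock macrophages and at 0.424 in ligated ones, about 11.3-fold higher than the level of 3 UMIs in the mock cells. That ligated level was 17.9% of the library mean and so also within the background.

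In ductal-like cluster 7, where 14.8% of genes rose and 11.6% fell, *Gpihbp1* (0.535 to 1.46), *Lpl* (0.173 to 0.508) and *Aqp1* (0.0719 to 0.881) rose and *Fabp5* fell. These levels rest on few molecules, about 4 and 14 UMIs for *Lpl* and about 2 and 24 for *Aqp1*. *Gpihbp1* was there at 8.36% and 31.1% of the library mean, *Aqp1* at 10.1% and 37.2% and *Lpl* at 13.4% and 18.0%, beside 7.40% and 23.6% for other cell types' markers. In T cell-like cluster 2 *Fabp4* (7.83 to 1.74) and *Fabp5* (0.795 to 0.252) fell and none of the 3 genes with a level rose, against 2.27% and 3.08% of genes. *Fabp4* was there at 8.81% and 10.8% of the library mean, beside 4.31% and 8.97% for the markers. In natural killer-like cluster 1, which should lack these genes, *Fabp4* was the 1 member with a level of at least 0.5 and it did not pass the size (1.32 to 1.13, -0.20), where 3.004% of genes rose and 1.55% fell. Below that level *Aqp1* (1.47), *Lpl* (1.17) and *Gpihbp1* (1.09) differed by more than 1. The levels of the members in cluster 1 were 6.55% to 9.88% of the ligated library mean, leaving out *Lpl* at 4.91%, where markers of other cell types had a median of 7.37%. In the mock library they were 1.13% to 2.85% of it, leaving out *Lpl* at 0.461% and *Meox2*, which was listed at 0, beside 2.18% for the markers.

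Most of the pattern of cluster 0 was seen at lower levels in erythroid-like cluster 10. In it *Fabp4* (63.2 to 25.9), *Fabp5* (3.96 to 0.986), *Lpl* (1.43 to 0.623) and *Thrsp* (4.50 to 1.84) fell and *Aqp1* (0.438 to 3.44) rose, while 2.14% of its genes fell, 23% rose and the median difference over all its genes was 0.57. Leaving out *Lpl* and *Meox2*, the members stood at 38.8% to 51.3% of their cluster 0 level in mock and 34.9% to 58.3% in ligated cells. The 11 endothelial markers stood at a median of 47.2% and 48.4%. The members and the endothelial markers thus stood at like shares of cluster 0, and whether cluster 10 holds endothelial cells, doublets or free RNA cannot be told apart from averages.

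**Figure D4:**
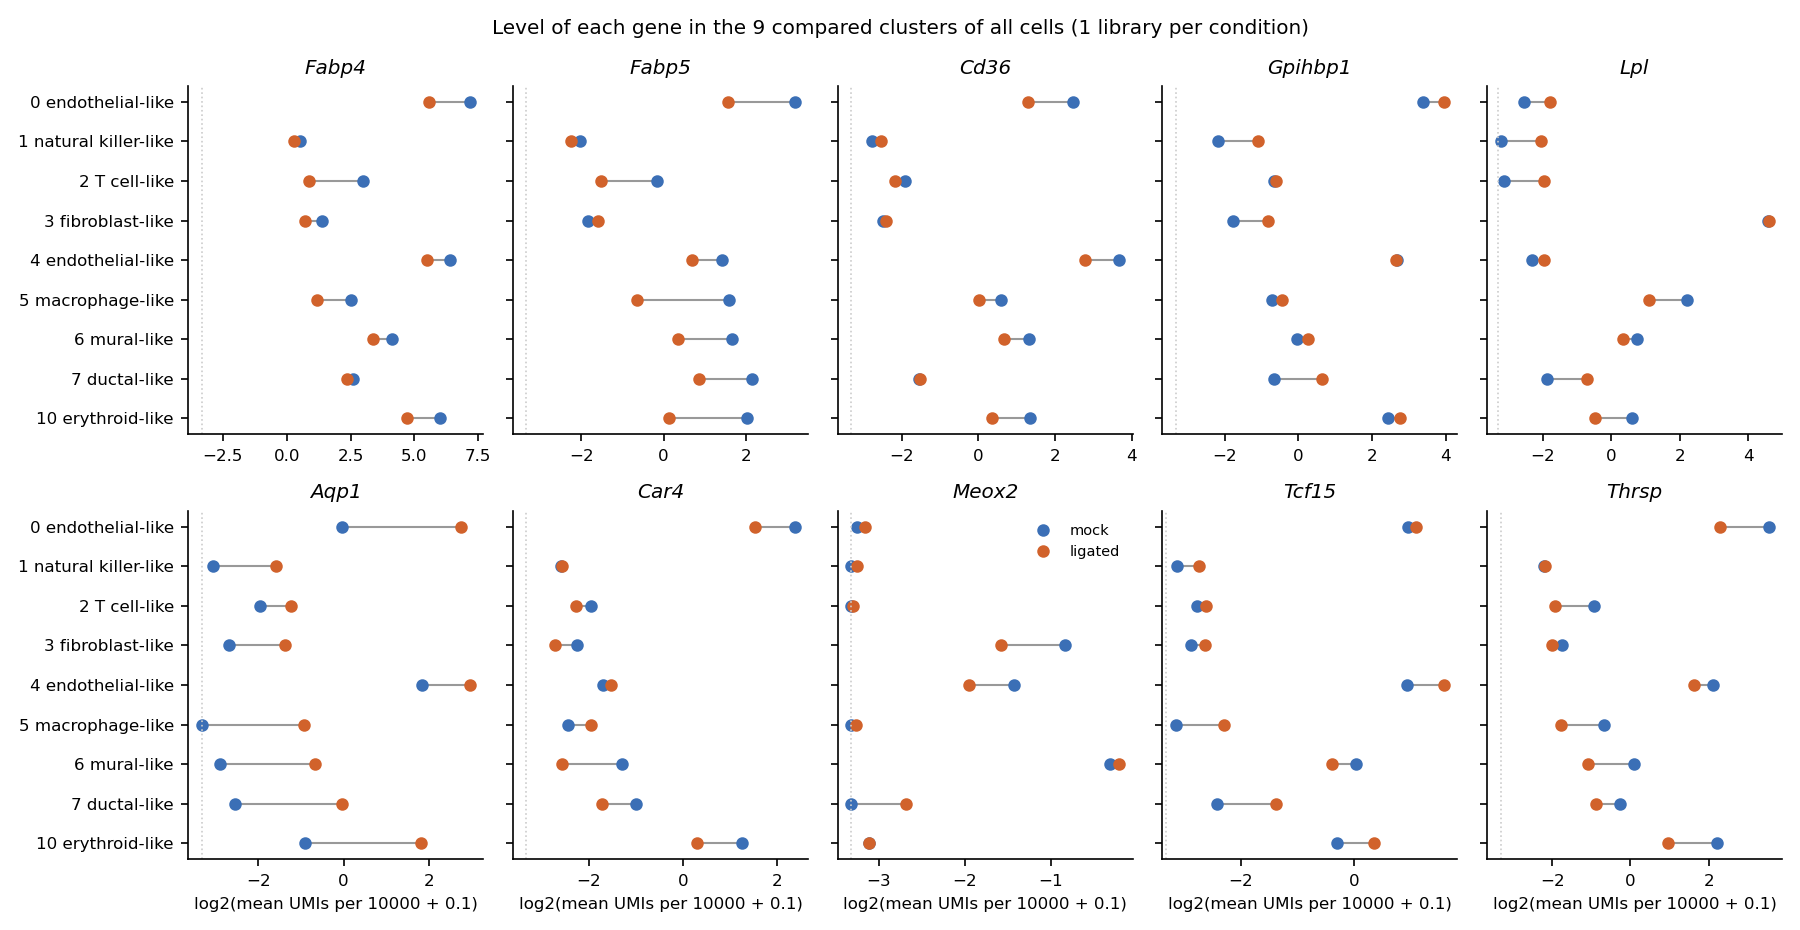
Level of each of the 10 genes in the 9 compared clusters of all cells, as log2 of mean UMIs per 10000 plus 0.1, with 1 point for the mock and 1 for the ligated library and the dotted line at a level of 0. The axes differ between genes. *Fabp4* is lower and *Aqp1* higher in the ligated library in all 9 clusters, also in cell types where the level is background.

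Across the 9 clusters the direction was the same for *Fabp4*, lower in 9 of 9 (-2.10 to -0.20), and for *Aqp1*, higher in 9 of 9 (0.72 to 2.78). *Fabp5* and *Thrsp* were lower in 8, and *Gpihbp1* and *Tcf15* higher in 8. These clusters share 2 libraries and the free RNA in them, so they are not 9 separate observations.

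Averaged over all cells *Fabp4*, *Cd36* and *Thrsp* differed more, and the shares of cells enter these values. The library mean of *Fabp4* was 88.8 in mock and 16.2 in ligated cells (-2.45), and -1.53 when the ligated clusters were weighted by the mock cell numbers. *Cd36* went from -1.74 to -1.07 and *Thrsp* from -2.11 to -1.19 by the same step. *Gpihbp1* turned from -0.43 to 0.54 and *Tcf15* from -0.62 to 0.19. *Lpl* went from 1.07 to 0.08. Depletion and cell recovery also set these shares, so the values over all cells are not a measure of the tissue.

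Few of the listed fatty acid genes around the members had a level high enough to compare. Of 8 genes of fatty acid uptake and trapping with a level of at least 0.5 in cluster 0, *Scarb1*, a receptor for high-density lipoprotein, rose (2.77 to 7.16, 1.34) and none fell. The median of the 8 was -0.38. Of 5 genes that control lipoprotein lipase or bind lipoproteins, *Apoe*, a ligand of lipoprotein receptors, rose (3.87 to 10.7, 1.44) and none fell. Its difference was 1.27 in cluster 0 after the share given by other cells was subtracted. In cluster 4 the *Apoe* difference was 1.00, and 0.68 after that subtraction.

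Among 3 PPAR and lipid storage genes, *Mgll*, which cleaves monoglycerides, fell from 19.8 to 9.81 (-1.01), and it also fell in cluster 4 (-1.07) and subset cluster 3 (-1.30). None of 3 fatty acid synthesis genes passed the size in cluster 0, although *Thrsp* did. *Aqp7*, a channel for glycerol, fell in cluster 4 (0.611 to 0.159, -1.46). *Hspg2*, a heparan sulfate proteoglycan, also fell there (4.95 to 2.16, -1.16). *Lrp1*, a large lipoprotein receptor, rose in subset cluster 3 (0.892 to 2.54, 1.41). Fibroblast markers rose in the same cells, from a sum of 21.3 in mock to 74.2 in ligated cells. The part of fibroblast RNA in the *Lrp1* difference was not tested.

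Other genes of the capillary did not go one way. Of 21 endothelial transcription factors with a level in cluster 0, *Erg* (0.488 to 1.58, 1.52) and *Ets2* (1.64 to 3.84, 1.18) rose and *Id1*, a target of BMP signalling, fell (12.5 to 5.20, -1.25). Of 17 other capillary genes 3 fell: *Rgcc* (31.0 to 10.3), *Sgk1* (9.77 to 2.57) and *Btnl9* (14.2 to 5.59). *Aplnr*, the apelin receptor (0.994 to 2.44), and *Sparcl1* (7.77 to 16.3) rose. The median of these 17 was -0.45, beside -0.10 for this list in cluster 4. All 20 genes of the list summed to 222 in mock and 152 in ligated cells of cluster 0. None of 10 endothelial identity markers passed the size in cluster 0, their median was -0.21, and their summed level was 177 in mock and 144 in ligated cells. *Sgk1* (-2.11) and *Btnl9* (-1.70) also fell in cluster 4, *Erg* (1.17) and *Aplnr* (1.39) rose there.

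In subset cluster 3 *Erg* (1.21), *Aplnr* (1.29) and *Scarb1* (1.18) rose, and *Id1* (-1.35), *Rgcc* (-1.88), *Sgk1* (-2.06), *Btnl9* (-1.55) and *Kdr*, the main VEGF receptor (-1.45), fell. Of 17 other capillary genes with a level there 4 fell and 1 rose, with a median of -0.67. That list summed to 201 in mock and 112 in ligated cells. *Fabp4*, *Lpl* and *Thrsp* are also known from fat. The 4 adipocyte markers with a row in the tables summed to 0.0035 in ligated cells of cluster 0 and were listed at 0 in mock cells, and *Plin1* and *Adrb3* were listed at 0 in both libraries in clusters 0 and 4.

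Over the 24 values of 12 clusters in 2 libraries, which share cells' libraries and depth, *Fabp4* and *Thrsp* had a Pearson correlation of log2 levels of 0.96 with each other. Among the 7756 other genes searched, *Fabp4* was most like *Dysf* (0.96), *Rbp7* (0.96) and *Emcn* (0.95), and *Thrsp* like *Dysf* (0.97), *Exoc3l2* (0.96) and *Rbp7* (0.96). *Gpihbp1* was most like *Egfl7* (0.98), *Cdh5* (0.97) and *Tek* (0.97), and *Tcf15* like *Esam*, *Apold1* and *Cavin2* (0.96 each). These are general endothelial genes for the most part, and *Cd36* joined them with *Epas1* (0.91), *Stom* (0.91) and *Cav2* (0.90).

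*Aqp1* was most like *Efna1* (0.96), *Erg* (0.91) and *Wscd1* (0.89), with a correlation of 0.59 to *Fabp4*. *Car4* was most like *Olfr1396* (0.92), *Ramp3* (0.91) and *Ces2e* (0.91), and *Fabp5* like *Ccnd1* (0.83), *Myo18a* (0.82) and *St3gal5* (0.76). The genes outside the endothelium had other neighbours: *Lpl* was like *Rnase4* (0.89) and *Cd302* (0.89), and *Meox2* like *Tmem100* (0.98), *Nr1h3* (0.93) and *Mylk* (0.93). The correlation of *Meox2* with *Tcf15* was 0.28.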

How the data were processed

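The 2 10x Genomics libraries of stroma-enriched gland cells came from 1 pool of glands per condition. The submitters' processing notes name Cell Ranger 6.0.1, Seurat and the build mm10. The deposited values, per the file headers, are the authors' cluster averages for 12 clusters of all cells and 5 of a subset. Each column sums to 10000, so they are means of UMIs per 10000, a linear scale read from the values. Cell numbers were recovered from the joint table, which is the cell-weighted mean of both libraries (largest residual 9.2e-08). The UMI totals recovered were 2267 distinct values for ligated and 625 for mock cells (medians 6488 and 6572). These were not drawn in proportion to the cells of each cluster, so the medians are not a measure of library depth. UMI numbers given as "about" rest on the median of the totals recovered in each cluster. In cluster 0 these were 145 ligated and 27 mock totals, so such UMI numbers are rough.

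In 21 rows a gene name had become a date and was restored from the row order. No member was among them. Clusters were named from marker lists. The background share of a cluster is the median, over markers of other cell types, of the cluster level over the library mean. Averages carry no barcodes, so doublets could not be called and barcodes shared between libraries could not be counted.

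All 10 members, genes of 7 pathway lists past the size rule (at most 3 per direction and list), and the 3 genes most like each member were named. 1 result of that search is not reported here. The members and lists were chosen with earlier results of these data known. Alternatives changed the pseudocount, minimum, size, scaling and background subtraction. Python 3.11.15, pandas 2.3.3, numpy 2.4.6 and matplotlib 3.10.9 were used. The recovery of cell numbers and the size rule were tested on a simulated cluster, and the other steps were not.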

Additional observations from a re-analysis of the deposited data

Results flagged for a closer look

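*Lpl* passed the size rule in opposite directions in different cell types. It was higher in the ligated library in ductal-like cluster 7 (difference 1.16, about 14 and 4 UMIs in ligated and mock cells, with the ligated level at 18.0% of the library mean beside 23.6% for markers of other cell types) and in endothelial-like subset cluster 3 (2.63). It was lower in macrophage-like cluster 5 (-1.11) and erythroid-like cluster 10 (-1.08). The difference between cell types was not tested, and the part of fibroblast RNA in it was not tested.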

How the results depend on the processing

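The balance of members (number that fell minus number that rose) was 3 in cluster 0, -1 in cluster 4 and 3 in subset cluster 3. With a difference of at least 2 required it was -1, 0 and -2, because *Aqp1* in cluster 0, and *Aqp1* and *Lpl* in subset cluster 3, were the members left. With a change of 1.5 times it was 1 in cluster 4 (3 fell and 2 rose), and with a pseudocount of 1 it was 0 there, since *Aqp1* came to 0.95. The other settings left the balance at or within 1 of these values. Of 270 member differences under the alternatives 252 stayed on their side of the size, 13 dropped below it, 5 passed it and 0 changed direction while past it. Counts over all genes moved more: in cluster 0, 103 fell and 151 rose, against 37 and 41 with a pseudocount of 1, 192 and 340 with no minimum level, 38 and 40 with a minimum of 2, 44 and 84 with a difference of at least 2, 231 and 278 with 1.5 times, and 63 and 96 after rescaling to genes seen in both libraries. In cluster 4, 110 fell and 129 rose, against 32 and 41, 205 and 367, 36 and 26, 47 and 80, 332 and 298, and 73 and 79 in the same order. In subset cluster 3, 174 fell and 259 rose, against 57 and 76, 314 and 631, 73 and 64, 47 and 118, 506 and 490, and 136 and 205. No paired analysis was possible because each condition has 1 library. Depth limits members with few UMIs, such as *Lpl* and *Aqp1* in ductal-like cluster 7.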
